A study of Mus musculus with 8 samples.

Results

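The genes described here encode the Toll-like receptors (TLRs) that RAW264.7 macrophages express, together with the LPS co-receptors CD14 and MD-2. They were taken from the count table by gene symbol: Tlr1, Tlr2, Tlr3, Tlr4, Tlr6, Tlr7, Tlr9, Tlr13, Cd14 and Ly96 (the gene of MD-2), which are 10 of its 23143 genes. RNA was sequenced from RAW264.7 cells, an established mouse macrophage line kept in culture, at 8 time points of treatment with lipopolysaccharide (LPS, 100 ng/ml, from E. coli serotype O111:B4). The 0 min cells were unstimulated, and the others had been exposed to LPS for 15, 30, 45, 60, 75, 90 or 120 min. All cells came from the same line, with no genetic change and no second agent given in the labels. The labels name the RNA fraction as cytoplasmic, whereas the methods of the study describe total RNA.

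TLRs are membrane proteins of innate immune cells that bind molecules made by microbes and signal through adaptor proteins to NF-κB and to interferon genes. TLR4 at the cell surface recognises LPS when the lipid is handed over by CD14 and held by MD-2. TLR2 pairs with TLR1 or TLR6 at the surface to bind bacterial lipopeptides, whereas TLR3, TLR7, TLR9 and TLR13 sit in endosomes and bind nucleic acids. Macrophages carry both kinds, so the same cell can sense the wall of a bacterium from outside and its RNA or DNA after uptake.

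With 1 library per time point, differences over time could not be checked against replicates, and all intervals are exact 95% intervals that cover counting error only. Total counts lay between 100250892 and 159077286 per library. The ribosomal RNA precursor Rn45s took 8.18% to 9.11% of the counts at 0, 30, 60 and 120 min, but 13.0% to 20.5% at 15, 45, 75 and 90 min, so the libraries fall into 2 sets of 4. Counts were divided by median-of-ratios size factors (normalized counts). Of the 7 macrophage markers, Lyz2, Csf1r, Cd68, Itgam, Emr1 and Fcgr1 were well detected in every library, the lowest value being 5582 normalized counts of Fcgr1 at 120 min, whereas Mrc1 had 19 to 39 counts. Their summed normalized count, of which Lyz2 made up the largest share, lay between 570872 and 695583. The Fcγ receptor gene Fcgr1 was called lower at 90 and 120 min (log2 ratios -0.86 and -1.39), the times at which Tlr13 was called lower, and the fitted course described below fell for Fcgr1 (-1.41) and Csf1r (-0.27, edgeR adjusted p = 0.0084). The markers of T cells, B cells, fibroblasts, epithelium and endothelium had at most 16 counts in any library, and Flt3 had at most 2. Siglech (145 to 275 counts) and Bst2 (958 to 1659 counts), markers of plasmacytoid dendritic cells, and the dendritic cell marker Zbtb46 (75 to 238 counts) were detected throughout. Zbtb46 was called lower at 75 min (log2 ratio -0.95) and its fitted course fell (-0.87, edgeR adjusted p = 0.011), as did those of Tlr13, Tlr3 and Tlr4, and its part in their falls was not tested. In bulk RNA, fewer cells with a transcript and less of it per cell cannot be told apart. The response to LPS itself was plain in Tnf, the gene of the cytokine TNF, with 8954 normalized counts before LPS, 85063 at 60 min and 361052 at 120 min. All 3 LPS response genes examined (Tnf, Il1b and Nfkbia) were called higher at 120 min by the pairwise test described next, and 1 of them (Il1b) passed the test of the course over time.

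During 120 min of LPS the transcripts of Cd14 and Tlr2 rose to 3.65 and 3.11 times their 0 min level, while those of Tlr13, Tlr3 and Tlr4 fell to 0.314, 0.413 and 0.486 of it. Cd14 was called higher from 60 min on and Tlr2 from 45 min on, whereas Tlr13 was called lower from 90 min on and Tlr3 and Tlr4 at 120 min alone. Ly96, Tlr1, Tlr6, Tlr7 and Tlr9 were called at no time point. A gene was called higher or lower than in the 0 min library where its log2 ratio was beyond 0.5 and an exact negative binomial test of the 2 libraries, with the blind dispersion that the study used, gave an unadjusted p under 0.05. Such a call compares 2 libraries and not 2 conditions. At 15 min none of the 10 receptor genes was called in either direction, as against 0.265% of the 16967 genes with a count called higher and 0.147% called lower. Their log2 ratios at 15 min lay between -0.17 (Tlr1) and 0.22 (Tlr9). At 30 min none was called either (background 1.04% higher, 0.183% lower). At 45 min 1 of 10 was called higher (background 3.42%) and none lower (background 1.36%). At 60 min 2 of 10 were called higher (background 3.14%) and none lower (background 2.16%), and at 75 min again 2 of 10 were higher (background 4.30%) and none lower (background 3.13%). At 90 min 2 were higher (background 5.24%) and 1 lower (background 4.0%). At 120 min 2 were higher (background 7.05%) and 3 lower (background 6.18%). The receptor genes called higher were Tlr2 and Cd14, and those called lower were Tlr13, Tlr4 and Tlr3. These backgrounds include genes with very few counts, whereas all 10 receptor genes averaged at least 10 normalized counts. Of the 12170 genes that did, 1146 were called higher and 1043 lower at 120 min. The median log2 ratio of the 10 genes at 120 min was 0.03. That of the 12156 genes with such a mean and a count at both 0 and 120 min was -0.01.

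A curve with a linear and a quadratic term of time was also fitted to all 8 libraries with edgeR. It was tested by quasi-likelihood with Benjamini-Hochberg adjustment over 12170 genes. The fit takes the scatter of the libraries about the curve as error. That scatter mixes departures from the shape of the curve with differences between libraries, and it does not measure the spread between repeat experiments. A course that passed is therefore a result for this time course alone. Of the 10 genes, 3 passed with a course that ended higher (Tlr2, Cd14 and Tlr1). Another 5 passed with one that ended lower (Tlr13, Tlr3, Tlr4, Tlr6 and Tlr7), while Tlr9 and Ly96 did not pass. This test called 26.7% of all genes tested higher and 27.7% lower, so that more than every second gene passed it, and the number of receptor genes passing it is to be read against these shares. In a plot of the 10 log2 ratios by time, Cd14 and Tlr2 climb away from the other genes from 30 min on, and Tlr13, Tlr3 and Tlr4 reach their lowest ratios at 120 min.

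**Figure D1:**
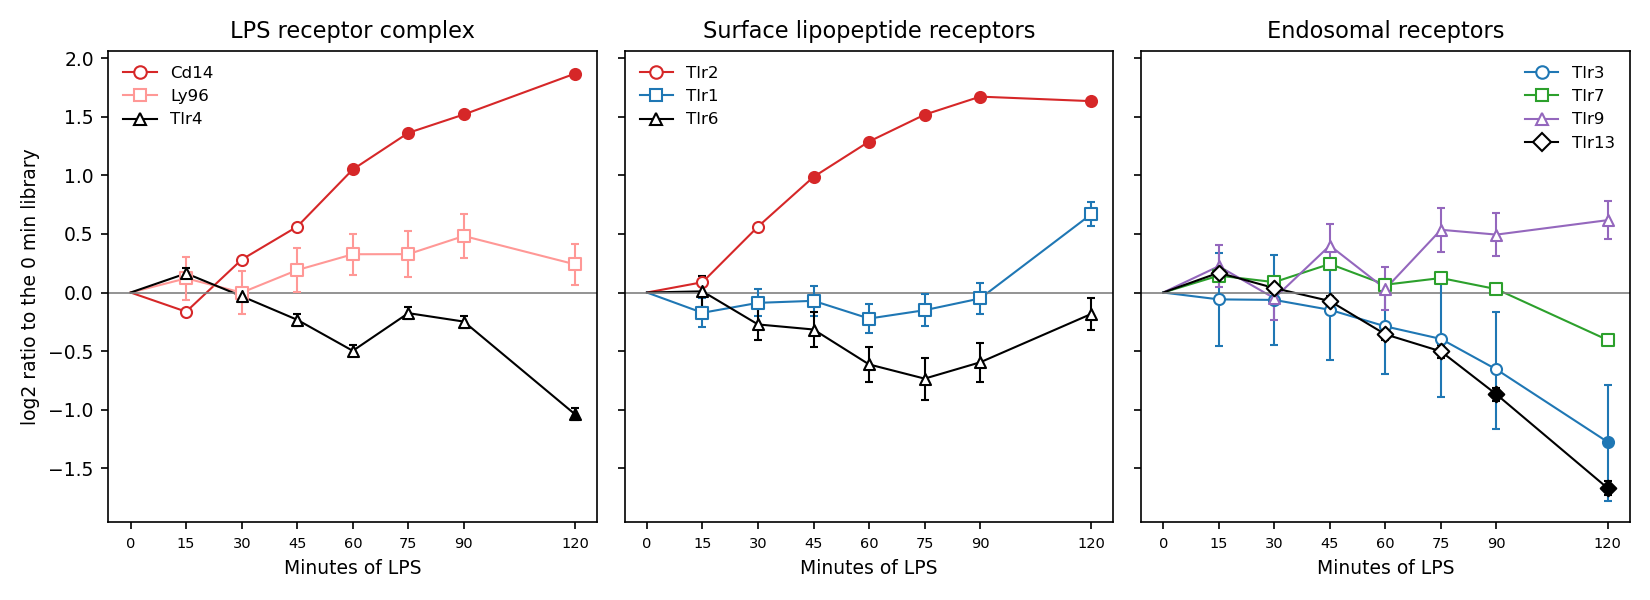
Log2 ratio of normalized counts to the 0 min library (vertical axis) at each time of LPS treatment in minutes (horizontal axis), 1 library per time point, in 3 panels for the LPS receptor complex, the surface lipopeptide receptors and the endosomal receptors. Error bars are exact 95% counting intervals and filled symbols mark calls against the 0 min library; Cd14 reached 1.87 and Tlr2 1.63 at 120 min, while Tlr13 fell to -1.67.

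Of the LPS receptor complex, the co-receptor transcript rose, the receptor transcript fell late, and the MD-2 transcript did neither beyond the tests used. Cd14 (chromosome 18, 36725064 to 36726815, minus strand, GRCm38) encodes the anchored surface protein that passes LPS to TLR4 and MD-2. From the 0 min library to the 120 min library it had, in order of time, 56976, 50857, 69253, 84184, 118078, 146645, 163513 and 208247 normalized counts. After a lowest value at 15 min, each later library thus lay above the one before. The ratio to 0 min was 2.07 (2.05 to 2.09) at 60 min and 3.65 (3.62 to 3.69) at 120 min, and Cd14 was called higher at 60, 75, 90 and 120 min (exact blind p = 1.9e-07 at 120 min). The call at 60 min was lost with Benjamini-Hochberg adjustment. The fitted course ended 2.17 higher on the log2 scale (edgeR adjusted p = 0.00016). Among the 12156 genes with a mean of at least 10 and a count at both 0 and 120 min, 2.53% had a larger log2 ratio at 120 min.

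Tlr4 (chromosome 4, 66827551 to 66846581, plus strand), the signalling receptor for LPS, went the other way. In order of time it had 7375, 8259, 7216, 6275, 5222, 6528, 6209 and 3588 normalized counts. The course was not even: the 60 min library lay below those at 75 and 90 min, and the 120 min library below all others. The 60 and 120 min libraries belong to the set with little Rn45s, and the 75 and 90 min libraries to the other set. The course also passed with a term for the set of libraries, and within the Rn45s-rich set the log2 ratio of 90 to 15 min was -0.41 (-0.46 to -0.36). Only at 120 min was Tlr4 called lower, with a ratio of 0.486 (0.469 to 0.505, exact blind p = 0.0032). The fitted course ended 0.94 lower on the log2 scale (fitted value -0.94, edgeR adjusted p = 0.014) and rested on the last library: without the 120 min library the fitted value was -0.31 (adjusted p = 0.12).

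Ly96 (chromosome 1, 16688456 to 16709605, plus strand) encodes MD-2, the protein whose pocket holds the lipid part of LPS. From 0 to 120 min it had, in order of time, 427, 464, 427, 487, 535, 536, 596 and 504 normalized counts, which is the narrowest span of the 10 genes (highest to lowest 1.40). At 120 min the log2 ratio was 0.24 (interval 0.07 to 0.41, exact blind p = 0.52), and no time point was called. The fitted course ended 0.36 higher with an edgeR adjusted p of 0.059, and without the 120 min library this became 0.75 with an adjusted p of 0.027. With total counts as the scale, the log2 ratio at 120 min was 0.04.

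Ratios between 2 genes of the same library do not depend on how libraries are scaled. Per length, Cd14 exceeded Tlr4 19.6-fold (19.2 to 20.1) at 0 min, 57.4-fold (55.9 to 58.9) at 60 min and 147-fold (143 to 152) at 120 min. The ratio of Ly96 to Tlr4 was 0.368 (0.336 to 0.403) at 0 min, 0.652 (0.598 to 0.709) at 60 min and 0.894 (0.821 to 0.973) at 120 min. Relative to Tlr4, the transcripts of both partners were thus more abundant at 120 min than before LPS.

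The surface receptors for lipopeptides divided. Tlr2 (chromosome 3, 83836272 to 83841824, minus strand), the partner shared by both lipopeptide receptor pairs, was the gene called earliest, whereas its partners Tlr1 and Tlr6 were called at no time point. Tlr2 had, in order of time, 42318, 44983, 62519, 83922, 103473, 121300, 134978 and 131419 normalized counts. Each library up to 90 min lay above the one before, and the value at 120 min was close to that at 90 min. It was called higher at 45 min with a ratio of 1.98 (1.96 to 2.01, exact blind p = 0.0052) and at each later time point. At 120 min the ratio was 3.11 (3.07 to 3.14, exact blind p = 4.4e-06), and the fitted course ended 1.87 higher on the log2 scale (edgeR adjusted p = 7.4e-05). The same rise was measured within the libraries rich in Rn45s, where the log2 ratio of 90 to 15 min was 1.59 (1.57 to 1.60), and for Cd14 1.68 (1.67 to 1.70).

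Tlr1 and Tlr6 are neighbours on chromosome 5 (Tlr1 at 64924680 to 64933600, Tlr6 at 64953092 to 64970942, both on the minus strand, GRCm38) and their coding sequences are alike. Reads that matched more than 1 gene symbol were discarded in the counting, and 410 of the 58-base stretches of the annotated transcripts occur in both genes, which is 15.0% of those of Tlr1 and 11.3% of those of Tlr6. These stretches come from 5 identical segments, the longest of 229 bases, all inside the coding sequence. A window of 90 bases at the right end of the longest segment (GENCODE vM21 transcripts, Tlr1 positions 1897 to 1986 and Tlr6 positions 1851 to 1940) is shown as an example of closely alike sequence. It was placed there for that likeness and does not stand for the whole transcripts. Its first 30 bases are the end of the shared segment, and the 2 bases that differ are in capitals.
Tlr1: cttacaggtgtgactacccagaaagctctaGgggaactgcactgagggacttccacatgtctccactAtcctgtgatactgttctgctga
Tlr6: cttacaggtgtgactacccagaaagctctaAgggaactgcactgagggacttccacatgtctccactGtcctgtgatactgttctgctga

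Because up to 2 mismatches were allowed but only the best matches were kept, a read over such a difference can still be assigned, while a read inside a shared segment was lost for both genes. The levels per length given here count only stretches unique to the gene. Tlr1 had, in order of time, 1047, 928, 985, 996, 897, 943, 1010 and 1664 normalized counts. It thus stayed between 897 and 1047 for 90 min and stood apart in the last library alone. Tlr6 had, in order of time, 807, 813, 668, 648, 527, 485, 534 and 711 normalized counts, a dip with its lowest point at 75 min. Neither passed the limits of a call. The log2 ratio of Tlr1 at 120 min was 0.67 (0.57 to 0.77, exact blind p = 0.062), and that of Tlr6 was -0.74 at 75 min (exact blind p = 0.053) and -0.18 at 120 min.

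In the fitted courses, Tlr1 ended 0.55 higher (edgeR adjusted p = 0.0022) and Tlr6 ended 0.41 lower on the log2 scale (edgeR adjusted p = 0.010). These p-values are for any change with time, such as the dip of Tlr6, and not for the difference between 120 and 0 min. Both calls were lost with a linear term alone (adjusted p = 0.080 and 0.19), and that of Tlr1 also without the 120 min library, where the fitted value was 0.11 (adjusted p = 0.50). For Tlr6 the fitted value was -0.86 without the 120 min library, -0.66 without the 0 min library and -0.19 with a cubic term, all of which passed. The ratio of Tlr1 to Tlr6 per unique length was 1.80 (1.65 to 1.96) at 0 min, 2.36 (2.13 to 2.62) at 60 min and 3.24 (3.0 to 3.52) at 120 min. For each partner the distance to Tlr2 widened up to 90 min. Tlr2 exceeded Tlr1 31.7-fold at 0 min, 105-fold at 90 min and 61.8-fold at 120 min, and it exceeded Tlr6 56.9-fold at 0 min, 274-fold at 90 min and 201-fold at 120 min.

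Of the endosomal receptors, the transcripts for the RNA sensors TLR13 and TLR3 fell, that for TLR7 was lower in the last library, and that for the DNA sensor TLR9 had its highest value there. Tlr13 (chromosome X, 106143275 to 106160493, plus strand) encodes a receptor for bacterial ribosomal RNA that mice have and humans lack. In the 8 libraries, in order of time, it had 7670, 8624, 7873, 7293, 5988, 5413, 4196 and 2410 normalized counts. From its highest value at 15 min each later library was below the one before. Tlr13 was called lower at 90 min with a ratio of 0.547 (0.525 to 0.569, exact blind p = 0.015) and at 120 min with a ratio of 0.314 (0.301 to 0.328, exact blind p = 3.2e-06). The fitted course had the lowest adjusted p of the 10 genes (-1.75 on the log2 scale, edgeR adjusted p = 1.5e-05). Within the Rn45s-rich set the log2 ratio of 90 to 15 min was -1.04 (-1.10 to -0.98). Of the 12156 genes with a mean of at least 10 and a count at both 0 and 120 min, 1.72% had a lower log2 ratio at 120 min.

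Tlr9 (chromosome 9, 106222598 to 106226876, plus strand) encodes the receptor for unmethylated CpG DNA. From 0 to 120 min it had, in order of time, 425, 497, 411, 561, 434, 616, 599 and 652 normalized counts. The values alternated with the set of libraries: they were 411 to 434 at 0, 30 and 60 min, where Rn45s was low, and 497 to 616 in the 4 libraries rich in Rn45s. Tlr9 was called at no time point, with a log2 ratio of 0.62 (0.45 to 0.78, exact blind p = 0.094) at 120 min, which compares 2 libraries low in Rn45s. The fitted course did not pass (0.62, edgeR adjusted p = 0.061), but it did with a term for the set of libraries (0.61, adjusted p = 0.0063).

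The sequences before the start sites of Tlr13 and Tlr9 are shown as those of the endosomal receptors with the lowest and the highest ratio at 120 min. They were taken from the RefSeq promoter table (GRCm38.p6), up to the first base that an annotated exon of the gene covers, at chrX:106143025-106143203 (bases -250 to -72 from the start) and chr9:106222348-106222597 (bases -250 to -1), both on the plus strand. Capitals mark the core of the site of the macrophage factor PU.1, GAGGAA.
Tlr13: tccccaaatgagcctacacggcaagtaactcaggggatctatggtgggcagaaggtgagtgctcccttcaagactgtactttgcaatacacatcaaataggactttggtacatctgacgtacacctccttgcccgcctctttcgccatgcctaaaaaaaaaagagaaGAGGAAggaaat
Tlr9: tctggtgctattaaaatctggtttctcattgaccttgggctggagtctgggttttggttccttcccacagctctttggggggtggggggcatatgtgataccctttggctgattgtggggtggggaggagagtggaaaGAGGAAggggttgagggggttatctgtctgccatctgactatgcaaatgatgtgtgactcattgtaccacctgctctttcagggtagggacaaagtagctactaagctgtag

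The promoter table held windows for 6 of the 10 genes (Tlr1, Tlr2, Tlr3, Tlr6, Tlr9 and Tlr13), reaching from 250 bases before to 50 after the start. They were searched on both strands for the letters of a κB site (GGNNTTTCC), of PU.1 (GAGGAA) and of a TATA box (TATAAA), none of which overlapped another in these windows. The PU.1 letters were found once in Tlr13, at -83, at -112 and 13 in Tlr9, and at -23 before one start of Tlr1. Of all 32851 windows in the table, 28.3% held them. Among these windows the κB letters were found in Tlr3 alone, at -210 (5.82% of all windows), and the TATA letters 3 times before one of the starts of Tlr6 (13.6% of all windows). The windows of Tlr3 and Tlr6, and that at the other start of Tlr1, lie inside the spans given for these genes. An annotated exon of the gene covers the first base of the Tlr3 window and of that Tlr1 window. In the Tlr2 window only bases -250 to -160 lie before the first base that an annotated exon covers. The Tlr2 window held none of these letters. It did hold GGGGAATTCC, another form of a κB site that the searched letters do not cover. Such other forms were not searched for in any window. These matches describe letters and not binding.

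Tlr3 (chromosome 8, 45395665 to 45411075, minus strand), the receptor for double-stranded RNA, was the scarcest of the genes, with 50 to 117 reads per library. From 0 to 120 min it had, in order of time, 100.5, 96.5, 96.2, 90.7, 82.2, 76.3, 63.7 and 41.5 normalized counts. Each library was below the one before, although the first steps were within counting error. At 120 min the ratio was 0.413 (0.291 to 0.578) and Tlr3 was called lower (exact blind p = 0.0082), a call that was lost with Benjamini-Hochberg adjustment. The fitted course fell by 1.22 on the log2 scale (edgeR adjusted p = 0.00060).

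Tlr7 (chromosome X, 167303380 to 167330574, minus strand), the receptor for single-stranded RNA, was the most abundant endosomal receptor. In the 8 libraries, in order of time, it had 11875, 13126, 12629, 14065, 12438, 12940, 12115 and 8969 normalized counts. The first 7 libraries lay between 11875 and 14065, and the last one lay below all of them. The log2 ratio at 120 min was -0.41 (-0.44 to -0.37, exact blind p = 0.25), which is not a call. The fitted course ended lower (-0.38, edgeR adjusted p = 0.0017), but not without the 120 min library (-0.24, adjusted p = 0.21). As a ratio within the library, Tlr7 to Tlr13 went from 1.67 (1.62 to 1.71) at 0 min to 2.24 (2.17 to 2.30) at 60 min and 4.01 (3.85 to 4.17) at 120 min, and Tlr9 to Tlr13 from 0.0648 (0.0591 to 0.0710) to 0.317 (0.293 to 0.343) at 120 min.

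Against the distribution of all genes with a mean of at least 10 at 120 min, Tlr6, Ly96 and Tlr7 lay within its bulk, and Cd14, Tlr2 and Tlr13 in its tails.

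**Figure D2:**
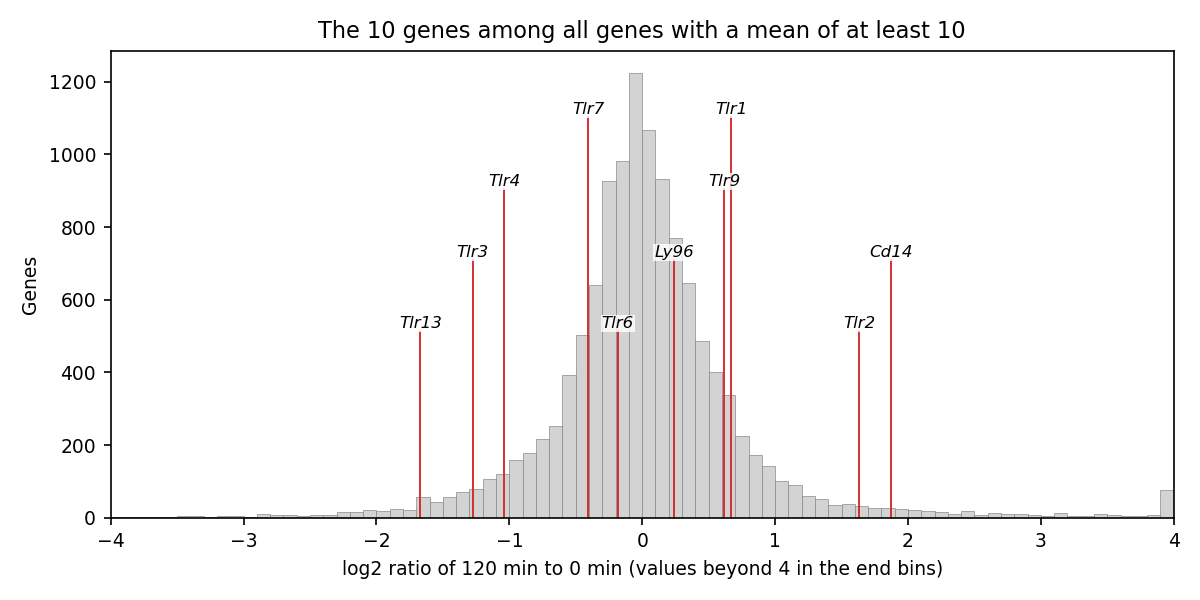
Number of genes (vertical axis) by log2 ratio of the 120 min to the 0 min library (horizontal axis, bins of 0.1, values beyond 4 in the end bins). Included are the 12156 genes whose mean was at least 10 normalized counts and that had a count in both libraries. Red lines mark the 10 receptor and co-receptor genes, from Tlr13 at -1.67 to Cd14 at 1.87, and their heights are set for legibility alone.

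Levels of different genes were compared as rpkm, reads divided by the number of unique 58-base stretches and by the total counts of the library. At 0 min the order from the highest level was Cd14 (319.7, interval 317 to 322), Tlr2 (127, 126 to 128), Tlr7 (28.4, 27.9 to 28.9), Tlr13 (17.0, 16.7 to 17.4), Tlr4 (16.3, 16.0 to 16.7), Ly96 (6.0, 5.49 to 6.55), Tlr1 (4.02, 3.79 to 4.25), Tlr6 (2.23, 2.09 to 2.38), Tlr9 (1.10, 1.01 to 1.21) and Tlr3 (0.205, 0.170 to 0.246). Tlr13 and Tlr4 were the closest neighbours, and with 1 library their order has no check beyond counting error. At 120 min the level was 1016 rpkm for Cd14, 343 for Tlr2, 18.6 for Tlr7, 6.90 for Tlr4, 6.17 for Ly96, 5.55 for Tlr1, 4.65 for Tlr13, 1.71 for Tlr6, 1.47 for Tlr9 and 0.0737 for Tlr3. Tlr13 had moved from the fourth to the seventh place, below Tlr4, Ly96 and Tlr1. The rpkm scale divides by total counts, on which log2 ratios at 120 min are 0.20 lower than on the scale of the size factors.

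**Figure D3:**
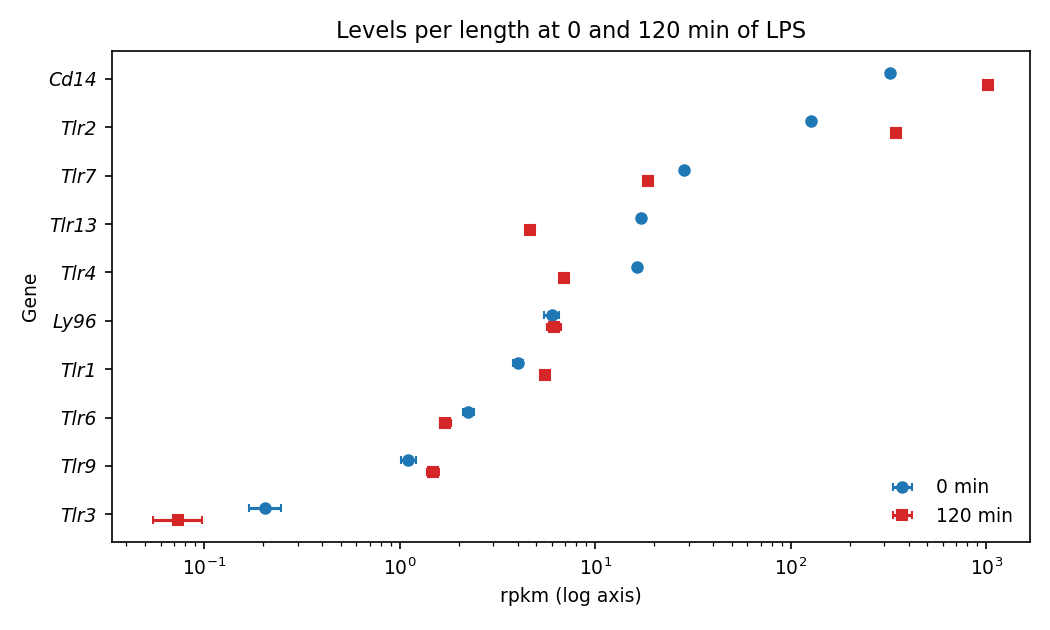
Levels of the 10 genes in rpkm (horizontal log axis) at 0 min (blue circles) and 120 min (red squares), 1 library each, with genes (vertical axis) in the order of their 0 min level. Bars are exact Poisson 95% intervals; Cd14 went from 319.7 to 1016 and Tlr13 from 17.0 to 4.65.

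The 8 Tlr genes summed to 196 rpkm at 0 min and 382 rpkm at 120 min. The share of Tlr2 in this sum grew from 64.7% at 0 min to 83.7% at 60 min and to 89.8% at 120 min. The endosomal receptors together held 23.8% at first, 11.9% at 60 min and 6.49% in the last library, and their summed level went from 46.7 to 24.8 rpkm. The surface receptors other than Tlr2 went from 22.6 to 14.2 rpkm. At 120 min a single receptor gene, Tlr2, thus made up most of the Tlr transcripts measured.

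**Figure D4:**
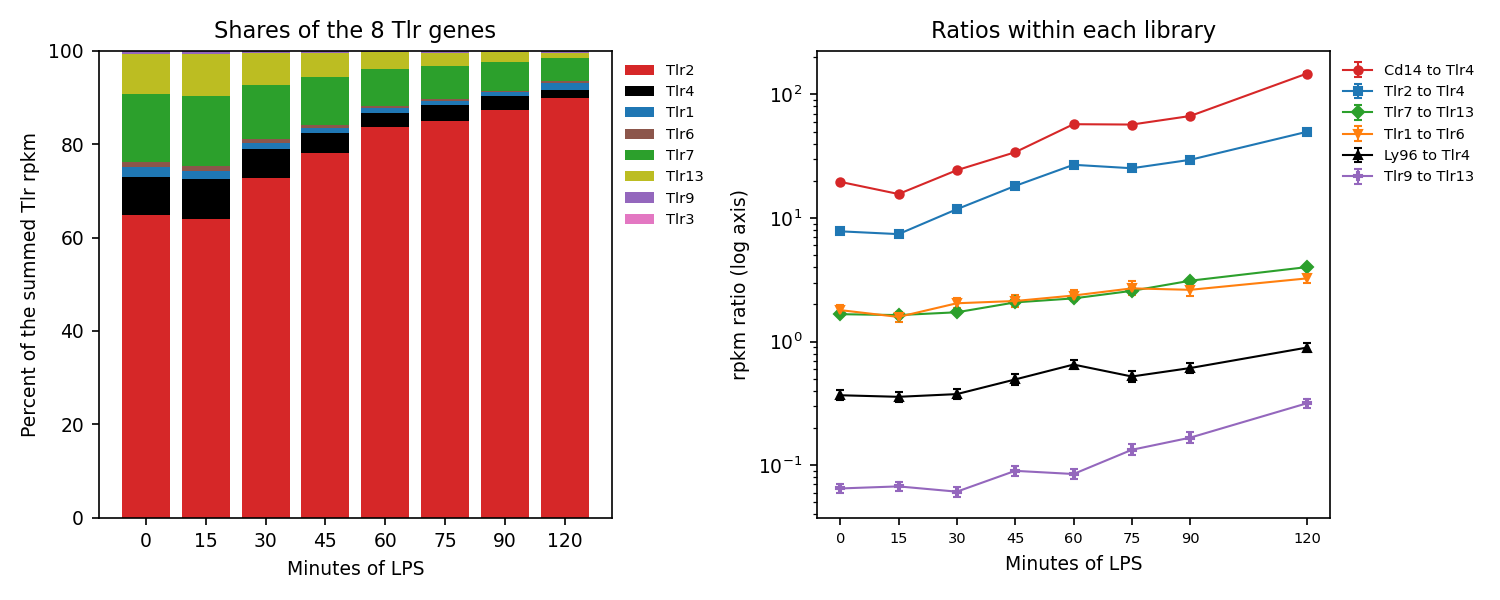
Left, percent of the summed rpkm of the 8 Tlr genes (vertical axis) taken by each gene at each time of LPS treatment in minutes (horizontal axis), where the share of Tlr2 grew from 64.7% to 89.8%. Right, rpkm ratios of gene pairs within each library (vertical log axis) against minutes of LPS, with exact 95% counting intervals; Cd14 to Tlr4 went from 19.6 to 147.

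Genes whose 7 log2 ratios to 0 min differed least from those of a receptor gene (root mean square difference, among 10496 genes averaging at least 100 normalized counts) are given for Tlr2, Tlr4 and Cd14. For Tlr2 they were Zyx (0.10), Vma21 (0.13) and Herpud1 (0.14), and Cd14 came 37th with a difference of 0.26. For Cd14 they were Nfkb2 (0.10), a subunit gene of NF-κB, Plekho2 (0.11) and Glipr1 (0.14), and Tlr2 came 42nd. For Tlr4 they were Fam26f (0.10), Tmem86a (0.14) and Sla (0.15). All of these ratios share the same 0 min library and the same size factors.

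The remaining Tlr genes of the mouse on the list, Tlr5, Tlr11 and Tlr12, had 0 counts in all 8 libraries, which allows at most 0.0189 to 0.0299 cpm depending on the library (3 counts as a share of the total). Tlr8 had 0 to 14 counts. Of 11 genes for accessory, folding and trafficking proteins of TLRs, none was called at 120 min (background 7.05% higher, 6.18% lower), and 4 of the 10 tested had a fitted course that ended higher and 4 one that ended lower (background 26.7% and 27.7%). The largest log2 ratios at 120 min among these belonged to Cnpy4 (-0.67), which encodes a partner of the TLR chaperone machinery, Cd36 (0.62), a scavenger receptor that works with TLR2, Cnpy3 (-0.47), which helps TLRs to fold, and Slc15a4 (-0.43), an endosomal transporter. Their values at 0 and 120 min were 2361 and 1489 normalized counts for Cnpy4, 60345 and 92966 for Cd36, 13444 and 9732 for Cnpy3, and 8897 and 6618 for Slc15a4. Lbp, the gene of the serum protein that carries LPS, had 1 count at 0 min and none later. The median log2 ratio of this list at 120 min was -0.01.

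Among the 10 genes for adaptors and proximal signalling, 3 were called higher at 120 min (background 7.05%) and 1 lower (background 6.18%), with a median log2 ratio of 0.32. Ticam1, the gene of the adaptor TRIF used by TLR3 and TLR4, had 814 normalized counts at 0 min, 3292 at 60 min and 5921 at 120 min (log2 ratio 2.86, exact blind p = 3.1e-14). Ticam2, the gene of TRAM, which links TRIF to TLR4, went from 825 to 466 at 60 min and 316 at 120 min (-1.38, exact blind p = 0.00020). The 2 adaptors of the same TLR4 branch thus moved in opposite directions. The kinase genes Irak2 (1.25, exact blind p = 0.00045) and Irak3 (0.98, exact blind p = 0.0059) were the other 2 called higher, of which IRAK3 is known to restrain TLR signalling. In the fitted courses, 6 of the 10 ended higher (background 26.7%) and 2 lower (background 27.7%).

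Of the 4 genes with a row that restrain the receptors, 1 was called higher at 120 min (Tollip, 7388 to 11925 normalized counts, log2 ratio 0.69, exact blind p = 0.048) and none lower, against the same background of 7.05% and 6.18%. Il1rl1 (0.63, fitted course higher) and Sigirr (-0.64, fitted course lower) passed the test of the course only. The median log2 ratio at 120 min of these 4 was 0.31. Of 6 pattern receptors outside the TLR family, 3 were called higher at 120 min (background 7.05%) and none lower (background 6.18%), with a median log2 ratio of 1.68. These were Ifih1 (3.18), a sensor of double-stranded RNA in the cytosol, Nod2 (3.18), a sensor of peptidoglycan fragments in the cytosol, and Clec4e (3.16), a surface lectin that binds mycobacterial glycolipid. Ifih1 had 186 normalized counts at 0 min and 1693 at 120 min, Nod2 403 and 3638, and Clec4e 11793 and 105406. All 3 of these log2 ratios were above those of Tlr2 and Cd14. The lists were chosen with earlier results of these data known, so their counts are no independent comparison with the background.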

How the data were processed

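RNA of RAW264.7 cells was sequenced by the authors from 8 libraries, 1 per time point of LPS treatment, after removal of ribosomal RNA and with a directional kit. The authors mapped 58-base reads with Bowtie to RefSeq transcripts (mm10), keeping all best alignments with at most 2 mismatches, and discarded reads that matched more than 1 gene symbol. The deposited values are raw counts per gene symbol. The submitters' processing notes name CASAVA 1.8.2 and DESeq 1.10.1. The version of Bowtie is not given in the sources used here. Depth was 100250892 to 159077286 counts per library.

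For scaling, median-of-ratios size factors were computed (0.708 to 1.23). The blind dispersion over all 8 libraries was 0.0287 plus 0.857 divided by the mean, and pairs of libraries were compared with an exact negative binomial test written in Python 3.11.15 (numpy 2.4.6, scipy 1.17.1, numba 0.67.0). Courses over time were fitted with edgeR 4.0.16 in R 4.3.3 for the 12170 genes averaging at least 10 normalized counts. Tested on simulated data for this fit, 198 of 200 genes with a 2-fold change were recovered among 12166 genes, with 11 false calls. The simulation used a dispersion of 0.01, below the blind dispersion given above, changes linear in log2 with time, and no difference between library sets. Its rates of recovery and of false calls therefore need not hold for these libraries. Unique 58-base stretches were counted in GENCODE vM21 transcripts matched by RefSeq accession. Positions and promoter windows are from RefSeq (GRCm38.p6), the build of the counts. Alternatives were 3 other scales, the dispersion of DESeq2 1.42.0, adjusted p-values, other limits and filters, other curves, DESeq2's likelihood ratio test, the libraries low in Rn45s alone, each library left out, and transcript length for rpkm.

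All 10 receptor genes are named. From the other lists, up to 4 genes were named that were called at 120 min or passed the test of the course, those with the largest log2 ratio first. Tnf was fixed as a check of the LPS response. The genes most like a receptor gene are the 3 with the smallest root mean square difference. They were computed for all receptor genes but Tlr3, the rule named Tlr2, Tlr4, Cd14 and Ly96, and those for Ly96 are not reported here. Rab7b and Spi1 of these lists were not used here. The members and lists were chosen with earlier results of these data known.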

Additional observations from a re-analysis of the deposited data

How the results depend on the processing

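No receptor gene's called or fitted direction reversed under any alternative. With Benjamini-Hochberg adjustment, 1 receptor gene instead of 2 was called higher at 60 min (Cd14 lost) and 2 instead of 3 lower at 120 min (Tlr3 lost), and over all genes 246 were called higher and 89 lower at 60 min and 603 and 487 at 120 min. With a limit of 1 on the log2 ratio, 193 genes were lower at 60 min, and 761 were higher and 657 lower at 120 min. With total counts as the scale, 677 genes were higher at 120 min and 1431 had a course ending higher. With total counts without Rn45s these were 755 and 1934, and 5554 courses ended lower. Of the receptor genes, the DESeq2 likelihood ratio test gave 5 courses ending higher (Tlr9 and Ly96 added), and a linear term alone gave 3 ending lower (Tlr6 and Tlr7 lost). Leaving out each library gave 3 to 5 receptor genes with a course ending lower, the 3 coming from the fit without the 120 min library. Ly96 also passed with a cubic term (0.21, adjusted p = 0.037), and Tlr9 with a linear term alone (0.62, adjusted p = 0.024) and without the 60 min library (0.63, adjusted p = 0.031). Why these calls moved was not tested. Of the 128 recomputed counts, 112 stayed within 1.5 times the value in the text. On total counts the log2 ratios of all genes moved by up to -0.33 (75 min), and the uncalled 60 min ratios turned from 0.07 to -0.03 for Tlr7 and from 0.03 to -0.06 for Tlr9 (-0.03 and -0.07 without Rn45s). At 120 min, total counts moved the uncalled ratios from 0.67 to 0.47 for Tlr1 and from 0.62 to 0.42 for Tlr9. The ratio of Tlr7 went from -0.41 to -0.61 and that of Tlr6 from -0.18 to -0.38. On that scale too, none of these genes was called at 120 min. No paired analysis was possible because each time point has 1 library.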
